A study of Mus musculus with 12 samples.

Results

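AKT/NRAS and AKT Cre/NRAS murine hepatocellular carcinoma cells were compared after *Dusp4* siRNA, so that the lines differed in the AKT construct while every sample had received the same siRNA pool. Of the 770 gene probes of the Mouse PanCancer Pathways panel, 546 had a deposited value above 20 in at least 1 of the 6 samples and are described here. The choice used the level alone and not the difference between the lines. The parental line AKT/NRAS carries 2 oncogenes, a myristoylated AKT flox/flox that Cre can excise and *NRAS* G12V, which had been delivered to mouse liver through the tail vein to raise the tumour that the cells come from. Transfection of that line with Cre recombinase, which took out the AKT construct and left *NRAS* G12V in place, had given AKT Cre/NRAS. Both lines received a *Dusp4* siRNA pool, received it again after 48 h and were collected 24 h after that, with 3 biological replicates per line. SCR samples of both lines, which had received a control pool, entered only the comparison at the end. Whether AKT Cre/NRAS is 1 clone, and how long the lines were kept apart, is not given in the sources used here, so the loss of AKT and any other difference between the lines cannot be told apart.

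RAS proteins switch on a cascade of RAF, MEK and ERK kinases, and also feed into PI3K, whose lipid product recruits AKT to the membrane. AKT keeps the mTOR complex active, restrains FOXO transcription factors and raises survival and growth, and a myristoylated AKT sits at the membrane without that lipid. ERK activity is commonly read from the RNA of its feedback inhibitors, which are the DUSP phosphatases and the Sprouty proteins, and from the RNA of transcription factors that it induces. In liver cancer, joint activation of AKT and RAS is a well known driver in mice.

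*Akt1* was 33.0-fold lower in AKT Cre/NRAS, which accords with the labels. Its normalized counts were 18257, 18566 and 18169.9 in the 3 AKT/NRAS samples and 547, 587 and 531 in the 3 AKT Cre/NRAS samples. The log2 fold change was -5.04 (standard error, SE, 0.04, limma adjusted p = 3.93e-10). Whether the *Akt1* probe reads the RNA of the construct is not stated in the sources used here. *Dusp4*, whose product is a phosphatase of the nucleus that switches off ERK and other MAP kinases, was the siRNA target, and its level differed between the siRNA-treated lines. Its normalized counts were 350.2, 389 and 371 in AKT/NRAS and 4126, 4174 and 3769 in AKT Cre/NRAS, so that all AKT Cre/NRAS samples lay far above all AKT/NRAS samples (log2 fold change 3.44, SE 0.06, limma adjusted p = 5.79e-09). Under SCR the counts were 1273, 1226 and 1186 in AKT/NRAS and 6343, 5843 and 4483 in AKT Cre/NRAS. In these normalized counts every siRNA sample lay below every SCR sample of its line, but all AKT Cre/NRAS siRNA samples stayed above all AKT/NRAS SCR samples. With the values as deposited the siRNA and SCR samples of AKT Cre/NRAS overlapped, so that the order within this line depended on the scaling. The comparison was therefore made under the same siRNA and not at the same *Dusp4* level. *Nras* had counts of 775, 912 and 879 in AKT/NRAS and 827, 898 and 960.0 in AKT Cre/NRAS, which overlapped (log2 fold change 0.07, limma adjusted p = 0.477).

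The recovered counts above the floor summed to 641790 to 868961 in the AKT/NRAS samples and 804650 to 1021756 in the AKT Cre/NRAS samples, and 252 to 277 genes per sample stood at the floor. Levels are given as normalized counts, which are the deposited signals scaled to 15 reference genes and raised to a common floor of 27.1, and they compare samples for 1 gene, not different genes with each other. Of the 15 reference genes, 3 were higher in AKT Cre/NRAS, 5 were lower and 7 did not pass the test, with log2 fold changes from -0.41 (*G6pdx*) to 0.54 (*Edc3*). The log2 ratio of the ribosomal *Rpl19* to *Polr2a*, which encodes the large subunit of RNA polymerase II, was 3.86 to 3.92 in AKT/NRAS and 4.72 to 5.03 in AKT Cre/NRAS. *Polr2a* was lower in AKT Cre/NRAS (log2 fold change -1.10, limma adjusted p = 3.63e-06), and *Rpl19* lay at -0.10 (limma adjusted p = 0.0493, and -0.68 to 0.00 over 8 scalings). With 1 sample left out *Rpl19* passed only without AKT Cre/NRAS replicate 2 (limma adjusted p 0.0818 to 0.117 in the other 5 fits). The part of this ratio in the results below was not tested. In lysates of whole cultures, fewer cells that express a gene and less RNA per cell cannot be told apart.

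The lines differed in most of the genes measured. Of the 546 genes, 522 rose above the common floor and were tested, and 389 of them passed the threshold of 0.05 (74.5%), with 191 higher (36.6%) and 198 lower (37.9%) in AKT Cre/NRAS. In 400 genes the samples of the lines did not overlap (76.6%), with AKT Cre/NRAS the higher in 198 (37.9%) and the lower in 202 (38.7%). Of the 452 genes above the floor in all 6 samples 342 passed (75.7%). With 3 samples against 3, an exact permutation test of 1 gene cannot go below a p of 0.1, and the adjusted p values of single genes are from 1 limma fit of the 522 genes unless another fit is named. Most of the differences that passed were below 1 in size on the log2 scale. The median size among the 389 genes was 0.70 on the log2 scale, and 136 of them differed by less than 0.5. A log2 fold change above 1 was found in 67 genes, above 2 in 32 and above 3 in 16. A value below -1 was found in 61 genes, below -2 in 23 and below -3 in 4. The median of all 522 genes was 0.00 and lay between -0.04 and 0.09 over the 8 scalings. Re-centring and quantile normalization hold this median near 0 by design. A median near 0 goes with similar numbers of rises and falls and does not mean that few genes moved. The counts for gene groups given below are to be read beside the shares of all genes, 74.5% passing, 36.6% higher and 37.9% lower.

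**Figure D1:**
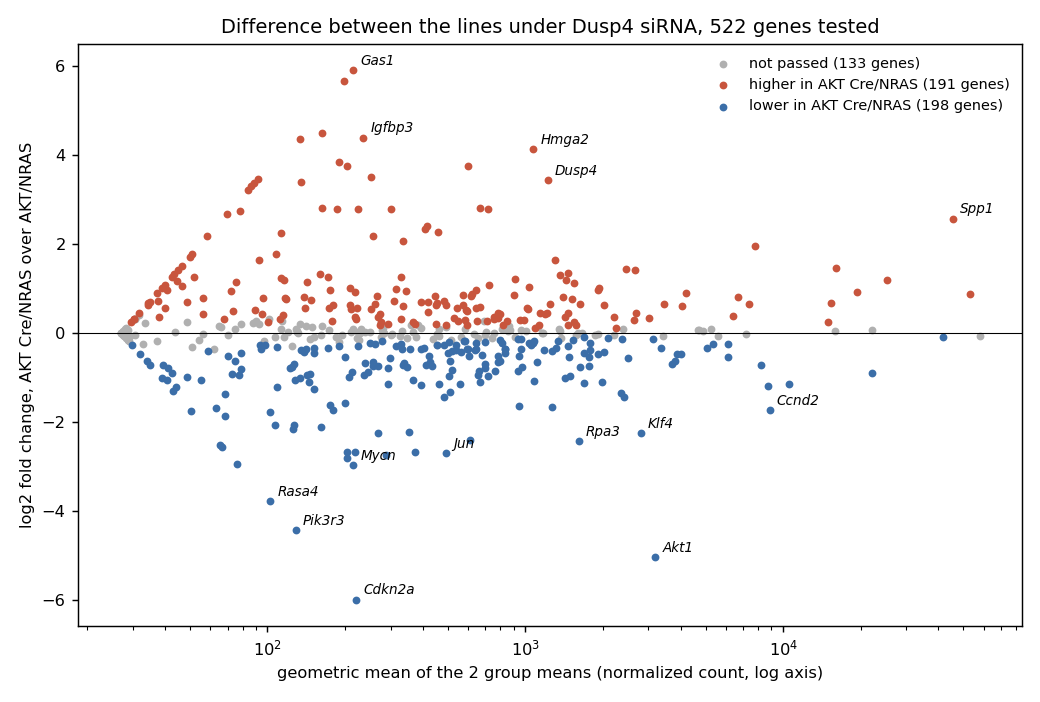
Log2 fold change between AKT Cre/NRAS and AKT/NRAS under *Dusp4* siRNA (y axis) against the geometric mean of the group means in normalized counts (x axis, log scale), with 1 point per tested gene. Red points are the 191 genes that were higher and blue points the 198 that were lower in AKT Cre/NRAS, and the straight edges at low counts are genes at the floor in 1 line.

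The feedback inhibitors of ERK were among the groups that differed most. Of 8 tested DUSP phosphatases and Sprouty genes, 6 were higher and 2 lower in AKT Cre/NRAS, with a median log2 fold change of 1.80, against 0.00 over all genes. *Dusp6*, which encodes a cytoplasmic phosphatase specific for ERK, had counts of 1740.3, 1577 and 1561 in AKT/NRAS and 4584, 4261 and 4243 in AKT Cre/NRAS (log2 fold change 1.42, SE 0.05, limma adjusted p = 2.81e-07). *Dusp5*, a nuclear phosphatase that also acts on ERK, had counts of 80.3, 64.4 and 66.9 in AKT/NRAS and 548, 492 and 442 in AKT Cre/NRAS (2.79, SE 0.11, limma adjusted p = 4.81e-07). For both genes the highest AKT/NRAS sample lay well below the lowest AKT Cre/NRAS sample. *Spry2*, which restrains receptor signalling upstream of RAF, rose from 226, 206 and 190.5 to 1041, 1035 and 959 (2.28, SE 0.07, limma adjusted p = 1.16e-07). *Spry4* (2.18) and *Spry1* (1.16), members of the same family, were higher as well. The members that were lower were *Dusp8* (-0.93) and *Dusp10* (-0.38), phosphatases that act mainly on JNK and p38. Thus the members that act on ERK signalling were higher and those that act mainly on JNK and p38 were lower, and *Dusp4*, with the largest difference of the group, was also the siRNA target.

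**Figure D2:**
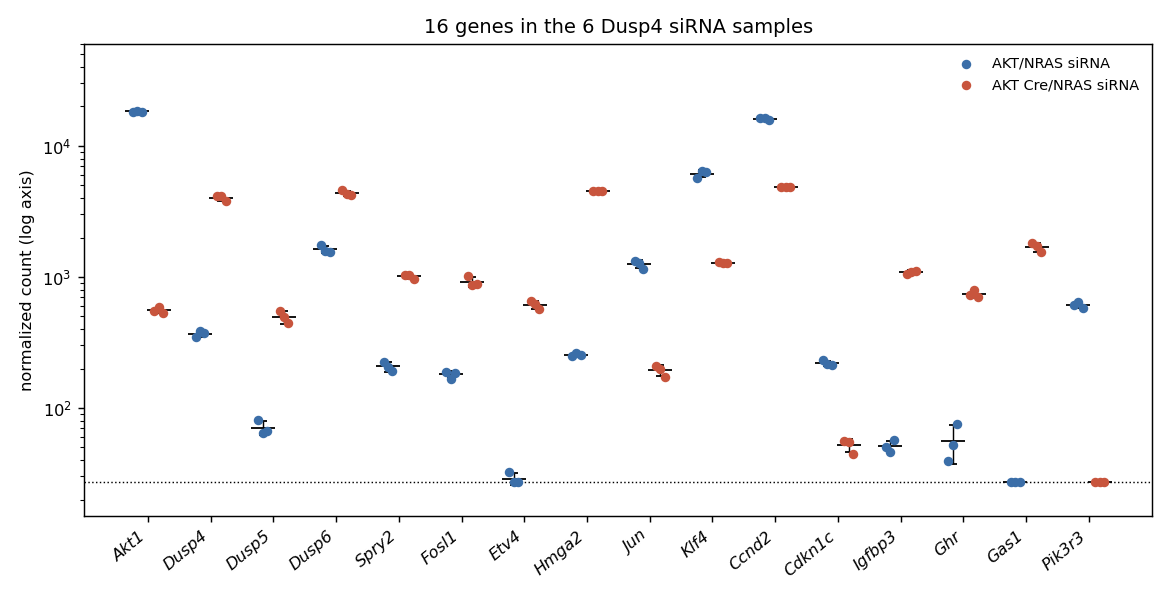
Normalized counts (log axis) of 16 genes in the 6 *Dusp4* siRNA samples, with 3 points per line, the mean as a bar and the SD as whiskers. The dotted line is the common floor of 27.1, at which *Gas1* stands in AKT/NRAS and *Pik3r3* in AKT Cre/NRAS. In none of the 16 genes do the lines overlap, but the genes were picked for display with results known. The lines did not overlap in 76.6% of all genes tested.

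Transcription factors that ERK induces did not move as 1 group. Of 8 tested, 4 were higher and 4 lower. *Fosl1*, which encodes the AP-1 subunit FRA1, had counts of 189.6, 167 and 186 in AKT/NRAS and 1019, 862 and 879 in AKT Cre/NRAS (log2 fold change 2.34, SE 0.08, limma adjusted p = 2.25e-07). *Etv4*, an ETS factor, stood at 32.6, 27.1 and 27.1 in AKT/NRAS, with 2 samples at the floor, and at 655, 622 and 566 in AKT Cre/NRAS (4.37 on the scale with the floor). *Myc* (0.91) and the nuclear receptor *Nr4a1* (1.16) were also higher. Other genes of the early response were lower. *Jun*, which encodes another AP-1 subunit, had counts of 1327, 1284 and 1155 in AKT/NRAS and 209.8, 197 and 173 in AKT Cre/NRAS (-2.70, SE 0.09, limma adjusted p = 1.23e-07). *Fos* (-1.77) and *Klf4* (-2.26), a zinc finger factor, were lower in the same way, and *Ets2* differed by -0.13 (limma adjusted p = 0.0494), which passed under 4 of the 8 scalings and only without AKT Cre/NRAS replicate 1 when a sample was left out (limma adjusted p 0.0912 to 0.144 in the other 5 such fits). The AP-1 genes on this list were thus split, with *Fosl1* higher and *Fos* and *Jun* lower in AKT Cre/NRAS.

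The MYC family was split too, while both HMGA genes were higher. *Hmga2*, an architectural DNA-binding protein abundant in the fetus and in many tumours, had counts of 248, 265 and 252 in AKT/NRAS and 4519, 4552 and 4508 in AKT Cre/NRAS (log2 fold change 4.14, SE 0.04, limma adjusted p = 3.93e-10). The spread within each line was small beside this difference. Its relative *Hmga1* rose from 273, 282 and 263 to 1947, 1945 and 1773 (2.79, SE 0.05, limma adjusted p = 9.57e-09). *Mycn* fell from 563, 647 and 610.1 to 66.9, 78.0 and 84.5 (-2.98, SE 0.10, limma adjusted p = 1.71e-07), whereas *Myc* had counts of 3180.5, 3090.5 and 2938 in AKT/NRAS and 6358, 5471 and 5498 in AKT Cre/NRAS. Neither MYC gene overlapped between the lines.

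Within the AKT and mTOR axis more genes were lower than higher, as 3 of 13 tested genes were higher, 8 lower with *Akt1* among them and 2 did not pass, with a median of -0.33. *Akt2* had counts of 341, 369 and 377 in AKT/NRAS and 330.3, 334 and 342 in AKT Cre/NRAS, which overlapped (-0.11, limma adjusted p = 0.124). *Mtor*, which encodes the kinase itself, had counts of 785, 794 and 710.5 in AKT/NRAS and 189.7, 162 and 141 in AKT Cre/NRAS (-2.22, SE 0.11, limma adjusted p = 1.36e-06). *Prkaa2*, which encodes a catalytic subunit of the energy sensor AMPK, fell from 257, 277 and 269 to 51.3, 62.2 and 63.0 (-2.17, limma adjusted p = 7.10e-07). *Ddit4* (-0.97), an mTOR inhibitor induced by stress, *Gsk3b* (-0.77), a kinase that AKT inhibits, and *Tsc2* (-0.28), a brake on mTOR, were lower. Among the higher genes were *Eif4ebp1* (0.80), a translation repressor that mTOR inactivates, and *Irs1* (0.73, near the floor in AKT/NRAS), an adaptor of the insulin receptor.

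Of 6 tested PI3K subunits, 3 were lower, 1 higher and 2 did not pass, and the lower ones were all regulatory subunits. *Pik3r3* had counts of 613, 639.8 and 579 in AKT/NRAS and stood at the floor in all AKT Cre/NRAS samples, so that it was at least 22.6-fold lower there (limma adjusted p = 4.94e-09). *Pik3r1* fell by 1.32 and *Pik3r2* fell by 0.55 on the log2 scale (limma adjusted p = 7.26e-07 and 1.58e-05). The catalytic subunits *Pik3ca* (0.08, limma adjusted p = 0.151) and *Pik3cb* (0.03, limma adjusted p = 0.759) did not pass. *Pik3r5*, the subunit higher in AKT Cre/NRAS, had counts of only 39.1, 30.6 and 32.8 there, next to the floor at which it stood in AKT/NRAS.

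Upstream of ERK, adaptors and exchange factors of RAS were mostly lower. Of 13 tested RAS isoforms, activators and GTPase activating proteins, 9 were lower, 1 higher and 3 did not pass, with a median of -0.35. The share that passed was 76.9%, near the 74.5% of all genes tested. *Sos1*, a RAS exchange factor, had counts of 715, 679.9 and 674 in AKT/NRAS and 333, 302 and 302 in AKT Cre/NRAS (-1.14, limma adjusted p = 1.44e-06), whereas its relative *Sos2* overlapped between the lines (-0.05, limma adjusted p = 0.473). The adaptors *Grb2* (-0.86), *Shc1* (-0.56) and *Shc2* (-0.64) and the RAS isoform *Hras* (-0.34) were lower. *Rasa4*, a GTPase activating protein of RAS, fell from 389.7, 382 and 389.6 to the floor in every AKT Cre/NRAS sample, which is at least 14.3-fold lower. *Rin1*, a RAS effector, was the 1 member that was higher (0.86). *Plce1*, a phospholipase C that RAS binds, was not on this list and was among the genes with the largest rises, from 161, 162 and 163 to 2348, 2292 and 2012 (3.77, SE 0.06, limma adjusted p = 5.89e-09).

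The kinases of the ERK cascade differed less than their inhibitors. Of 6 tested RAF, MEK and ERK genes, 2 were higher, 3 lower and 1 did not pass, and none differed by more than 0.67 on the log2 scale in either direction. *Mapk3*, which encodes ERK1, had counts of 7237, 7395 and 7335 in AKT/NRAS and 5068, 5144 and 5028 in AKT Cre/NRAS (-0.53, limma adjusted p = 1.51e-06), and *Braf* was lower by a similar amount (-0.67). *Map2k1*, which encodes MEK1, was higher (0.33), and *Map2k2*, which encodes MEK2, overlapped (0.00, limma adjusted p = 0.963). In the JNK and p38 cascades 4 of 11 genes were higher, 4 lower and 3 did not pass. *Map2k6*, which activates p38, rose from 903, 1012 and 954 to 2261, 2151 and 2124 (1.19, limma adjusted p = 5.44e-07), and *Map3k7*, the kinase TAK1, fell by 1.06 on the log2 scale.

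D cyclins went in opposite directions. *Ccnd1* had counts of 5629, 6225 and 5769 in AKT/NRAS and 9188, 9186 and 9459 in AKT Cre/NRAS (0.66, SE 0.04, limma adjusted p = 5.39e-06). *Ccnd2* had counts of 16263, 16387 and 15882 in AKT/NRAS and 4825, 4823 and 4899 in AKT Cre/NRAS (-1.74, SE 0.03, limma adjusted p = 5.61e-09). In neither gene did the lines overlap. *Ccnd3* (0.08, limma adjusted p = 0.505) and the partner kinases *Cdk4* (0.07, limma adjusted p = 0.177) and *Cdk6* (0.08, limma adjusted p = 0.0794) did not pass. Of 8 tested S phase cyclins, kinases and E2F factors, 3 were higher, 2 lower and 3 did not pass. *Ccna2*, the cyclin of S phase and G2, was higher (0.84), as was *Cdk2* (0.57), its kinase. Both E cyclins were lower, *Ccne1* with the AKT Cre/NRAS samples at the floor (at least 1.59-fold) and *Ccne2* from 83.8, 61.6 and 59.2 to at most 52.3 (-0.41, limma adjusted p = 0.0248). Without AKT Cre/NRAS replicate 1 its value was -0.38 (limma adjusted p = 0.0741) and without AKT Cre/NRAS replicate 3 it was -0.42 (limma adjusted p = 0.0599).

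Inhibitors of the cyclin dependent kinases included 1 of the largest differences on the panel. *Cdkn2a*, which encodes p16INK4a and p19ARF, had counts of 1591, 1956 and 1869 in AKT/NRAS and stood at the floor in all 3 AKT Cre/NRAS samples, so that it was at least 66.7-fold lower in the samples labelled AKT Cre/NRAS (limma adjusted p = 4.43e-09). The SCR samples showed the same, with counts of 1835, 1833 and 1776 in AKT/NRAS and every AKT Cre/NRAS sample at the floor. This direction rests on the column labels, which *Akt1* accords with in the same columns. The panel gives 1 value for the locus, and which of its transcripts the probe reads is not stated in the sources used here. Its neighbour *Cdkn2b*, which encodes p15INK4b, was lower by a smaller amount, with counts of 4535, 4809.9 and 4734 in AKT/NRAS and 2837, 2969 and 2906 in AKT Cre/NRAS (-0.69, SE 0.03, limma adjusted p = 1.40e-06). *Cdkn1c*, which encodes p57, fell from 230.3, 217 and 212 to 55.8, 55.3 and 44.9 (-2.06, limma adjusted p = 1.28e-06), and *Cdkn2c* fell by 0.83 on the log2 scale. *Cdkn1b*, which encodes p27 and is a target gene of FOXO factors, was higher (0.60, limma adjusted p = 1.36e-06). *Cdkn1a*, which encodes p21, overlapped (0.07, limma adjusted p = 0.377). In all, 2 of 7 inhibitors were higher, 4 lower and 1 did not pass.

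Of 13 genes of the p53 axis and the stress response, 5 were higher, 4 lower and 4 did not pass. *Trp53* itself overlapped (0.00, limma adjusted p = 1.000). *Mdm2* (0.69), the ligase that degrades p53, *Bax* (0.54), which permeabilises mitochondria, and *Ddit3* (1.35), which encodes the unfolded protein response factor CHOP, were higher. *Ddit3* had counts of 768, 954 and 1021 in AKT/NRAS and 2623, 2278 and 2098 in AKT Cre/NRAS. *Gadd45b* fell from 456, 531 and 558 to 82.6, 68.1 and 90.6 (-2.67, SE 0.13, limma adjusted p = 1.02e-06), and its relative *Gadd45a* overlapped (-0.07, limma adjusted p = 0.489). Among caspases, death receptors and their partners 5 of 9 were higher, 3 lower and 1 did not pass, with a median of 0.82. *Casp12* (0.95), *Tnfrsf10b* (0.88), which encodes a TRAIL receptor, and *Endog* (0.84) were higher. The initiator *Casp9* was lower (-1.01). In the BCL2 family the survival gene *Bcl2l1* rose from 892, 882 and 834 to 2197, 2133 and 2114 (1.30, SE 0.04, limma adjusted p = 7.34e-08), whereas *Bcl2*, another survival gene, fell from 83.8, 76.6 and 79.8 to 37.9, 33.6 and 43.1 (-1.05, limma adjusted p = 3.95e-05).

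Genes of G2 and mitosis were mostly higher in AKT Cre/NRAS, with 6 of 9 higher, 2 lower and 1 that did not pass, and a median of 0.58. The share that passed was 88.9%, against 74.5% of all genes tested. *Cdc25c* (1.19), which activates the mitotic kinase, *Smc3* (1.12), a cohesin subunit, and *Ttk* (0.75), a checkpoint kinase, were higher. *Stmn1*, which destabilises microtubules, fell from 3776, 4127 and 4041 to 1352, 1495 and 1523 (-1.45, limma adjusted p = 3.32e-07). Of 13 genes of DNA replication, 7 were higher, 2 lower and 4 did not pass, with a median of 0.25. The helicase subunits *Mcm4* (0.52) and *Mcm7* (0.44) were higher and *Pcna*, the sliding clamp, did not pass (0.09, limma adjusted p = 0.146). *Rpa3*, the small subunit of the single-strand binding protein RPA, stood apart with counts of 3755, 3728 and 3769 in AKT/NRAS and 647, 712 and 709 in AKT Cre/NRAS (-2.44, SE 0.04, limma adjusted p = 7.85e-09).

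The growth hormone and IGF axis held the second largest rise among the genes above the floor in all 6 samples. *Igfbp3*, a secreted protein that binds IGFs, had counts of 50.0, 45.8 and 56.6 in AKT/NRAS and 1051, 1100.3 and 1119.6 in AKT Cre/NRAS (4.40, SE 0.09, limma adjusted p = 1.21e-08). *Ghr*, the growth hormone receptor, had counts of 39.6, 52.3 and 75.5 in AKT/NRAS, and 729.7, 791 and 701 in AKT Cre/NRAS (3.75, SE 0.21, limma adjusted p = 2.54e-06). *Socs2*, which growth hormone induces and which restrains its receptor, rose from 226, 240.0 and 292 to 1883, 1646 and 1760.5 (2.81, SE 0.10, limma adjusted p = 2.25e-07). All 3 genes were higher in every AKT Cre/NRAS sample. *Igf1r* (0.72) was also higher and *Insr*, the insulin receptor, did not pass (0.03, limma adjusted p = 0.742). Of the 6 tested genes 5 were higher and none lower, with a median of 1.77.

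Growth factor receptors and ligands were changed in 20 of 21 tested genes (95.2%, against 74.5% of all genes tested). Of these 13 were higher and 7 lower, and the median of the group was 0.57. *Egfr* had counts of 68.6, 66.3 and 48.9 in AKT/NRAS and 502, 399.7 and 401 in AKT Cre/NRAS (2.81, SE 0.15, limma adjusted p = 2.13e-06), whereas its relatives *Erbb2* (-0.86) and *Erbb3* (-1.22) were lower. *Pdgfra*, a PDGF receptor, rose from 38.4, 30.8 and 56.6 to 422, 468 and 415 (3.39, SE 0.20, limma adjusted p = 3.46e-06). *Fgfr2* was at the floor in AKT/NRAS and at 277, 314 and 341 in AKT Cre/NRAS, which is at least 11.5-fold higher, and *Fgfr1* (at least 2.94-fold) and *Fgfr4* (1.65) were also higher. The hepatocyte growth factor receptor *Met* differed by only 0.12 (limma adjusted p = 0.0111), which passed under 4 of the 8 scalings. Of the ligands, *Fgf1* (-1.15) and *Pdgfc* (-1.13) were lower.

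The angiogenic factors were mostly higher, with 7 of 10 genes higher, 2 lower and 1 that did not pass, and a median of 0.65. *Vegfc*, a ligand of lymphatic vessels, had counts of 79.1, 86.9 and 88.4 in AKT/NRAS and 597, 603 and 575 in AKT Cre/NRAS (2.79, SE 0.07, limma adjusted p = 3.15e-08). *Vegfb* (1.65) and *Vegfa* (0.65) were higher, and *Pgf*, placental growth factor, was at the floor in AKT/NRAS and higher in AKT Cre/NRAS by at least 9.57-fold. *Angpt1*, a ligand that stabilises vessels, fell from 498, 589 and 576 to 85.9, 83.9 and 88.0 (-2.67, SE 0.08, limma adjusted p = 8.37e-08). *Flt1*, a VEGF receptor, was lower as well (-1.11).

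**Figure D3:**
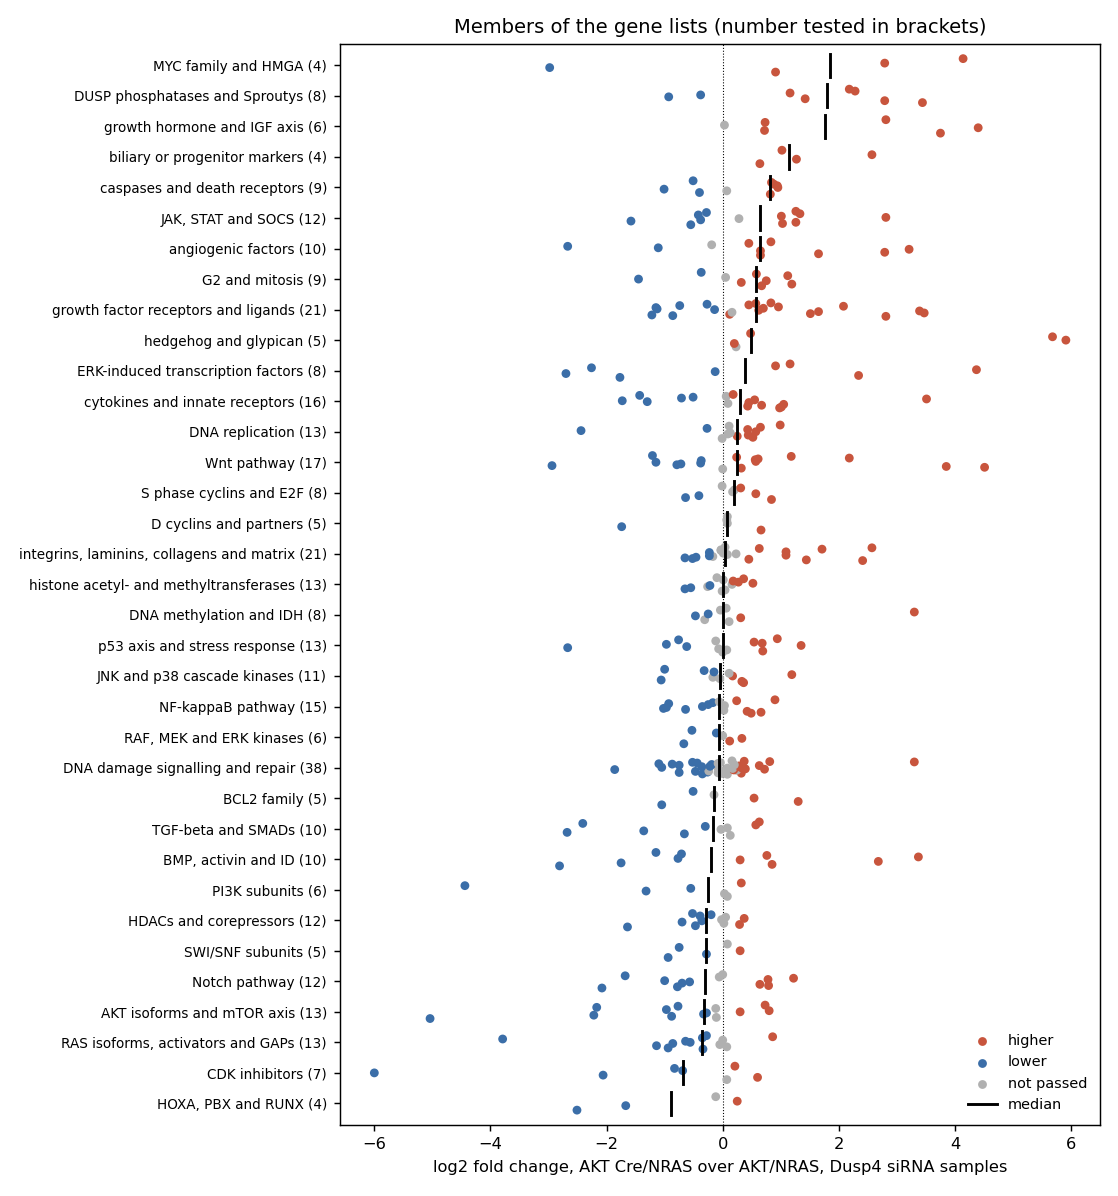
Log2 fold change between AKT Cre/NRAS and AKT/NRAS under *Dusp4* siRNA (x axis) for each tested member of 35 gene lists with at least 4 tested members (y axis, number tested in brackets). Red points passed the test as higher, blue points as lower and grey points did not pass, and the black bar is the median, which runs from -0.89 for HOXA, PBX and RUNX to 1.85 for the MYC family and HMGA.

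Wnt ligands showed some of the largest differences in both directions. *Wnt7b* had counts of 37.2, 35.5 and 28.3 in AKT/NRAS, just above the floor, and 867, 779.6 and 720.2 in AKT Cre/NRAS (4.51, SE 0.12, limma adjusted p = 5.06e-08). *Wnt10a* rose from 57.0, 43.9 and 47.2 to 703, 703 and 759.9 (3.85, SE 0.10, limma adjusted p = 5.20e-08). *Wnt16* went the other way, from 216, 219 and 208 to the floor, which is at least 7.92-fold lower. *Axin2*, a target gene and brake of the pathway, was at the floor in AKT/NRAS and at 129, 130.3 and 119 in AKT Cre/NRAS, at least 4.66-fold higher. Of 17 tested genes of the pathway, 9 were higher, 7 lower and 1 did not pass. Receptors and cytoplasmic parts were divided, with *Fzd2* (-0.79), *Fzd7* (-0.38) and *Dvl1* (-1.15) lower, *Dvl2* (0.57) and *Apc* (0.56) higher and *Ctnnb1*, which encodes beta-catenin, higher by 0.24.

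*Gas1* and *Gpc4*, both anchored at the cell surface, had the largest lower limits of a rise. *Gas1*, a growth arrest protein and hedgehog co-receptor, was at the floor in every AKT/NRAS siRNA sample and at 1813, 1721 and 1552 in AKT Cre/NRAS, at least 62.6-fold higher (at least 57.1-fold under the scaling that gave the smallest bound). *Gpc4*, a glypican, stood at the floor in AKT/NRAS and at 1463, 1429 and 1437 in AKT Cre/NRAS, at least 53.3-fold higher (at least 48.7-fold). The hedgehog receptor *Ptch1*, itself a target of the pathway, overlapped between the lines (0.23, limma adjusted p = 0.0961), and the inhibitor *Sufu* was higher (0.48). Of the 5 tested hedgehog and glypican genes 4 were higher and none lower, with a median of 0.48.

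Ligands of the TGF-beta and BMP families went both ways. *Tgfb3* had counts of 932, 961 and 951 in AKT/NRAS and 145, 153 and 143 in AKT Cre/NRAS (-2.68, SE 0.05, limma adjusted p = 9.57e-09). *Bmp2* fell from 589.8, 529.6 and 509.7 to 87.0, 70.1 and 72.5 (-2.81, SE 0.10, limma adjusted p = 2.54e-07). *Ltbp1*, which stores latent TGF-beta in the matrix, fell by 2.41 on the log2 scale, and the receptor *Tgfbr1* (-1.36) and the ligand *Tgfb2* (-0.66) were lower too. *Tgfb1* (0.13, limma adjusted p = 0.184) and *Tgfbr2* (-0.03, limma adjusted p = 0.493) overlapped. Of 10 TGF-beta genes 2 were higher, 5 lower and 3 did not pass. In the BMP group 5 of 10 were higher and 5 lower. *Bmp7* was at the floor in AKT/NRAS and higher in AKT Cre/NRAS by at least 6.62-fold, *Fst*, which binds activins, was at or next to the floor in AKT/NRAS and at 287, 283 and 299 in AKT Cre/NRAS (3.37), and *Bmp6* was at least 3.47-fold lower. The BMP target genes *Id1* (-0.71) and *Id2* (-1.15) were lower.

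Of 12 Notch genes, 4 were higher, 6 lower and 2 did not pass, with a median of -0.31. *Notch1* had counts of 282, 269 and 236 in AKT/NRAS and 70.3, 64.1 and 50.0 in AKT Cre/NRAS (-2.08, SE 0.14, limma adjusted p = 5.83e-06), and *Notch2* was lower by 0.78. The target gene *Hes1* (-0.57), the ligand *Jag2* (-0.70), and *Aph1b* (-1.68), a subunit of gamma-secretase, were lower. The ligands *Jag1* (0.64) and *Dll1* (0.79) and the ubiquitin ligase *Dtx4* (1.22) were higher, so that receptors were lower and ligands were divided.

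Chromatin genes differed by small amounts for the most part. Of 12 histone deacetylases and corepressors 2 were higher, 7 lower and 3 did not pass, with a median of -0.28. *Hdac1* fell from 1632, 1738 and 1636 to 475, 549 and 582 (-1.64, SE 0.08, limma adjusted p = 9.32e-07), and *Hdac5* (-0.70) and *Hdac2* (-0.47) were lower, whereas *Hdac3*, 1 of the 15 reference genes used for scaling, was higher (0.29). Of 5 SWI/SNF subunits 3 were lower, among them *Arid1a* (-0.94) and the ATPase *Smarca4* (-0.75), 1 was higher (*Pbrm1*, 0.30) and 1 did not pass. Histone acetyltransferases, methyltransferases and related genes had 4 higher, 3 lower and 6 that did not pass, and their range was only -0.65 to 0.52. *Mgmt*, which repairs alkylated guanine, was at the floor in AKT/NRAS and at 256, 270.4 and 304 in AKT Cre/NRAS, at least 10.2-fold higher. Apart from it, the other 37 tested genes of DNA damage signalling and repair lay between -1.86 and 0.81. Of all 38, 10 were higher, 14 lower and 14 did not pass. *Fancg* (-1.86) and *Prkdc* (-1.10), which acts in end joining, were lower, and *Fancl* (0.72) and *Ube2t* (0.81), which together attach ubiquitin in the Fanconi anaemia pathway, were higher. Of 4 tested HOXA, PBX and RUNX genes 1 was higher, 2 lower and 1 did not pass, and *Hoxa10* was lower by at least 5.87-fold. *Pax8*, another developmental factor, was at least 6.09-fold lower.

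Of 21 integrin, laminin, collagen and matrix genes, 8 were higher, 5 lower and 8 did not pass. *Itga2*, a collagen receptor subunit, had counts of 163, 210.1 and 166 in AKT/NRAS and 971, 982 and 919 in AKT Cre/NRAS (2.41, SE 0.10, limma adjusted p = 5.23e-07). *Itga3* (1.44) and *Lamb3* (1.09), which encodes a chain of the laminin that it binds, were higher, and *Tnc*, tenascin C, was at least 3.39-fold higher. *Fn1*, fibronectin, overlapped (-0.03, limma adjusted p = 0.759). *Flnc*, an actin crosslinker, was not on this list and fell from 814, 746 and 679.6 to 117, 93.8 and 119.9 (-2.75, SE 0.11, limma adjusted p = 5.00e-07).

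In the NF-kappaB pathway 5 of 15 genes were higher, 7 lower and 3 did not pass. The subunits *Rela* (0.66) and *Nfkb1* (0.49) were higher. The inhibitor *Nfkbia* (-1.02) and its relative *Nfkbiz* (-0.97), which are also target genes, were lower. *Nfkbia* had counts of 2125, 2043 and 1921 in AKT/NRAS and 1047, 997 and 960.0 in AKT Cre/NRAS. Of 12 JAK, STAT and SOCS genes, 6 were higher, 5 lower and 1 did not pass, with *Jak1* (-0.55) and *Stat3* (-0.38) lower and *Jak2* (1.03), *Jak3* (1.26) and *Socs3* (1.01) higher. *Lifr*, the receptor of leukaemia inhibitory factor, rose from 71.0, 77.5 and 73.8 to 848, 862 and 854 (3.51, SE 0.06, limma adjusted p = 5.89e-09). Among 16 cytokines and innate receptors 9 were higher, 5 lower and 2 did not pass. *Tlr4*, the receptor of bacterial lipopolysaccharide, fell from 803, 818 and 764 to 301, 288 and 294 (-1.43, limma adjusted p = 1.46e-07), and *Il22ra1* (-1.73) was lower.

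Markers of liver cell types were few on the panel. Of 3 hepatocyte markers, *Pck1* was at the floor in all 6 samples, *Cebpa* was lower in AKT Cre/NRAS (-0.39, limma adjusted p = 6.68e-04) and the other did not pass. Of 5 biliary or progenitor markers, all 4 that were tested were higher. *Spp1*, osteopontin, had counts of 16928, 19518 and 19348 in AKT/NRAS and 101245, 115168 and 115311 in AKT Cre/NRAS (2.57, and 1.84 to 2.67 over the scalings). *Hhex* (1.02) and *Sox9* (0.64) were higher, and *Prom1*, which encodes CD133, stood at the floor in AKT/NRAS and at 72.5, 69.1 and 59.5 in AKT Cre/NRAS (at least 2.48-fold higher, limma adjusted p = 5.00e-06). Their summed level was 18669 to 21332 in AKT/NRAS and 104635 to 118678 in AKT Cre/NRAS, nearly all of it *Spp1*. Of 8 leukocyte markers, 7 were at the floor in all 6 samples, among them *Csf1r*, the macrophage growth factor receptor, and the remaining *Cd14* had 1433 to 1533 counts in AKT/NRAS and 1629 to 1708 in AKT Cre/NRAS. Of 3 endothelial markers *Kdr* was at the floor in all samples, whereas *Flt1* (-1.11) and *Angpt2* (-0.19, limma adjusted p = 0.127) were above it in all 6. Of 5 fibroblast or stellate markers *Pdgfrb*, *Col1a2* and *Col3a1* were at the floor in all samples. The fibroblast markers summed to 142 to 165 in AKT/NRAS and 523 to 594 in AKT Cre/NRAS, most of it *Pdgfra*, and *Col1a1* stayed next to the floor (0.23, limma adjusted p = 0.286).

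Many genes were measured in only 1 of the lines. In 24 genes every AKT/NRAS sample stood at the floor and every AKT Cre/NRAS sample above it, and in 15 genes the reverse held. The bounds of the 24 ran up to 62.6-fold and those of the 15 up to 66.7-fold, and they are lower limits for the scaling used. The genes just inside the limit of 20 were *Rps27a* and *Sost* (highest deposited value 21.40) and *Creb3l4* (21.70), and those just outside stood at 20 in all 6 samples and have no order. In all, 24 of the 546 genes lay under the common floor of 27.1 in every sample and were not tested.

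Under the scaling used, most genes that differed between the lines under siRNA differed in the same direction under SCR. The size of the difference was tested separately by the interaction given below. The SCR samples share no sample with the comparison above. Of 515 genes tested under SCR, 396 passed (76.9%), with 149 higher (28.9%) and 247 lower in AKT Cre/NRAS. Of the 388 genes that passed under siRNA and were tested under SCR, 319 passed in the same direction there, which is 82.2% of the 388 and 80.6% of the 396. A further 60 did not pass under SCR and 9 passed in the opposite direction. Those 9 were *Ccne2*, which was lower under siRNA (-0.41) and higher under SCR (0.56), and *Map3k1* (0.36 and -0.56), *Mllt4* (0.17 and -0.55), *Sap130* (0.21 and -0.37), *Sp1* (0.28 and -0.31), *Pbrm1* (0.30 and -0.29), *Whsc1* (0.27 and -0.25), *Whsc1l1* (0.18 and -0.24) and *Map2k4* (0.17 and -0.24), all of which were higher under siRNA and lower under SCR with this scaling. Whether their SCR values keep their sign under the other scalings was not tested. *Sap130* is 1 of the 15 reference genes used for scaling. Under siRNA *Map2k4* and *Mllt4* passed under 4 of the 8 scalings and in 2 of the 6 fits that each left out a sample (limma adjusted p up to 0.0921 for *Map2k4* and 0.0889 for *Mllt4* in the others, without either AKT Cre/NRAS replicate 1 or 3 or AKT/NRAS replicate 3 for both, and without AKT/NRAS replicate 2 for *Map2k4* and 1 for *Mllt4*), and *Ccne2* and *Whsc1l1* passed under 5 of the scalings. In AKT Cre/NRAS SCR the log2 *Rpl19* to *Polr2a* ratio was 5.48, 6.36 and 6.88, a wider spread than in the siRNA samples, and the part of this spread in the differences between siRNA and SCR was not tested.

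**Figure D4:**
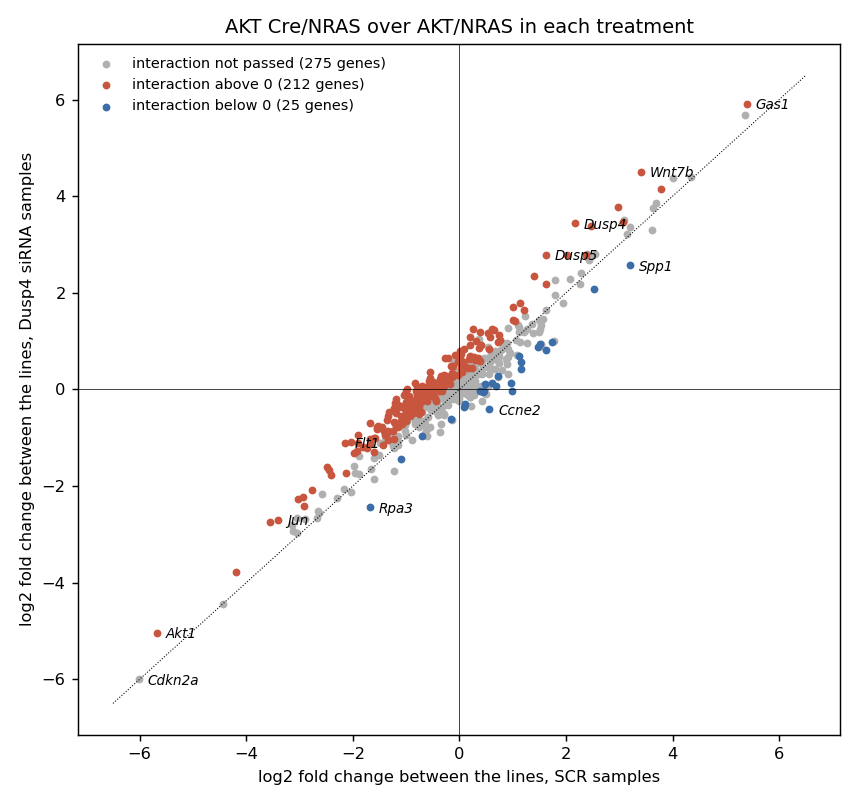
Log2 fold change between AKT Cre/NRAS and AKT/NRAS in the *Dusp4* siRNA samples (y axis) against that in the SCR samples (x axis) for the 512 genes tested in both, with the line of equal difference dotted. Red points are the 212 genes whose difference was higher and blue points the 25 whose difference was lower under siRNA by the interaction test.

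Whether the difference between the lines changed with the siRNA was tested as a line by siRNA interaction in a fit of the 12 samples. Of 525 genes, 238 passed (45.3%), of which 213 had a higher value under siRNA (40.6%) and 25 a lower one (4.76%). This split depended on the scaling. With the values as deposited 32 passed, 2 of them higher, after re-centring on the median 50 were higher and 151 lower, and without AKT Cre/NRAS SCR replicates 2 and 3, left out after their *Rpl19* to *Polr2a* ratio had been seen, 160 passed, 8 of them lower. *Dusp4* had the largest positive interaction of the panel at 1.28 (limma adjusted p = 7.28e-04), as its difference between the lines was 3.44 under siRNA and 2.16 under SCR, and its interaction ran from 0.85 to 1.76 over the scalings, without passing for the values as deposited. *Dusp5* (2.79 and 1.62, interaction 1.17) and *Wnt7b* (4.51 and 3.40, interaction 1.11) followed. The most negative interactions were those of *Cxcl5*, a chemokine (-1.03), which overlapped between the lines under siRNA and was higher in AKT Cre/NRAS under SCR (0.99), and of *Ccne2* (-0.97).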

How the data were processed

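RNA from 12 samples (4 groups of 3) was hybridised to the NanoString® Mouse PanCancer Pathways panel of 770 gene probes with 6 positive and 8 negative controls. The deposited signal values are, as the files show, barcode counts that the authors scaled with 1 factor per sample from the positive controls, with values at or below 20 set to 20. That factor was adjusted so that the values came closest to whole counts. Dividing by it then gave whole counts for 100% of the lower values above 20 that were checked (within 0.1). Because of the adjustment this match is not an independent test. Reference gene scaling, which the deposited values do not show, was added here: of 20 reference genes the 15 most stable by geNorm over the 12 samples were kept, and the highest scaled floor of any sample, 27.1, was set as the floor of all. Differences are on the scale log2(value + 1), which understates those of genes near the floor. They were tested for genes above the floor in at least 1 sample with limma (version 3.58.1, R version 4.3.3, intensity trend, Benjamini-Hochberg adjustment, threshold 0.05). Scripts were tested on simulated data.

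The 3 samples of a line are biological replicates of 1 line, so p values cover the spread between cultures only. Where a line was at the floor in every sample, its values are equal by construction. The spread between its cultures then does not enter the p value of that gene. An "at least" fold compares the mean of the measured line with the floor in the other. Alternatives were 7 other scalings, the pseudocount, the floor, the filter, the test, the adjustment, the replicate block and leaving out each sample. The genes compared and the gene lists were chosen with earlier results of these data known. Named genes were the construct, siRNA and marker genes, the 10 largest rises and falls above the floor, the 6 largest limits each way, up to 6 genes per list by p value, the 5 largest interactions each way and the genes at the limit of 20. A further 41 genes were chosen after their values had been seen, and some genes that the rule names are not reported here.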

Additional observations from a re-analysis of the deposited data

Results flagged for a closer look

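Each result here is a gene whose difference between the lines was not the same under *Dusp4* siRNA as under SCR, by the line by siRNA interaction in limma. The genes entered were the construct, siRNA and marker genes and those with the largest rises, falls, limits and interactions. Under the scaling used 22 of them passed. Genes named from the lists alone were not entered, and some of these passed as well, such as *Fosl1* (0.94) and *Gsk3b* (0.69). With the values as deposited 5 of the 22 kept their direction and their call, namely the 5 with a negative interaction. Those 5 did not pass with Benjamini-Yekutieli adjustment, under which 10 of the 22 did, and with 5 reference genes *Ccne2* was the 1 of them that passed. The spread of AKT Cre/NRAS SCR in the *Rpl19* to *Polr2a* ratio stands beside all of them, and its part was not tested.

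Among the signalling genes, the interaction was 1.28 for *Dusp4*, 1.17 for *Dusp5* and 0.37 for *Dusp6*, and all 3 genes were higher in AKT Cre/NRAS under siRNA and under SCR. For *Dusp6* the interaction turned to -0.05 with the values as deposited and -0.04 after re-centring, and those of *Hmga2* and *Rasa4* turned as well. It was 0.64 for *Akt1* (-5.04 under siRNA and -5.68 under SCR), 0.79 for *Plce1* (3.77 and 2.97) and 0.41 for *Rasa4* (-3.79 and -4.20). It was 0.92 for *Pdgfra* (3.39 and 2.47), 0.40 for *Fgfr2* (3.47 and 3.07) and 1.03 for *Flt1* (-1.11 and -2.14). *Rasa4* was at the floor in AKT Cre/NRAS, and *Fgfr2* in AKT/NRAS, so that their fitted values depend on the floor.

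Among transcription, matrix and surface genes the interaction was 0.80 for *Polr2a* (-1.10 and -1.90), 0.70 for *Jun* (-2.70 and -3.40), 0.37 for *Hmga2* (4.14 and 3.78) and 0.99 for *Creb3l1* (1.24 and 0.25). It was 1.11 for *Wnt7b*, 0.81 for *Flnc* (-2.75 and -3.56), 0.50 for *Ltbp1* (-2.41 and -2.91) and 0.52 for *Gas1*. The AKT/NRAS siRNA samples of *Gas1* were all at the floor and its AKT/NRAS SCR samples at or next to it (30.9, 33.6 and 27.1), so that its fitted value depends on the floor.

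A negative interaction was found for the chemokine *Cxcl5* (-1.03), the cyclin *Ccne2* (-0.97), the replication genes *Rfc3* (-0.83, from 0.13 under siRNA and 0.96 under SCR) and *Rpa3* (-0.77, from -2.44 and -1.68), and *Ube2t* (-0.82, from 0.81 and 1.63).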

How the results depend on the processing

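The number of genes that differed between the lines under siRNA was 389 and ran from 333 with Benjamini-Yekutieli adjustment to 404 with the replicate number as a block. It was 366 to 383 with 1 sample left out, and 353 of the 389 genes passed in all 6 such fits. In all 8 scalings 308 passed with the same sign. The share of rises among the genes that passed was 49.1% (45.0% to 57.3% over the scalings). The deviations of same-numbered samples of the lines had low correlations (0.21, 0.03 and 0.16), against -0.2 to 0.06 for differently numbered ones. The numbers were not taken as pairs, and with the replicate block the interaction passed in 240 genes. For the 252 to 277 genes per sample at the floor only limits can be given.

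The interaction depended on the scaling. The count of 238 became 32 with the values as deposited and 101 with Benjamini-Yekutieli adjustment, and ran from 176 to 307 with 1 sample left out. The 213 positive values became 2 as deposited, 50 after re-centring, 98 after quantile normalization and 101 with Benjamini-Yekutieli adjustment, and ran from 164 to 250 with 1 sample left out. The 25 negative values became 151 after re-centring, 92 after quantile normalization, 9 with 10 reference genes, 1 with 5 reference genes, 0 with Benjamini-Yekutieli adjustment and 8 without AKT Cre/NRAS SCR replicates 2 and 3. They ran from 12 (without AKT/NRAS SCR replicate 1 or 3, or AKT Cre/NRAS siRNA replicate 2) to 57 (without AKT Cre/NRAS SCR replicate 1), with 13, 14 and 16 without AKT/NRAS siRNA replicate 3, AKT Cre/NRAS siRNA replicate 1 and AKT Cre/NRAS siRNA replicate 3. The cause was not tested. The interaction of *Dusp6* was -0.05 as deposited and -0.04 after re-centring, that of *Hmga2* -0.06 and -0.05, and that of *Rasa4* -0.06 as deposited.

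Among the named genes a change of sign under siRNA occurred only in genes that had not passed, and in *Rpl19*. With the values as deposited *Cxcl5* was at 0.04, *Fn1* at 0.05, *Gadd45a* at 0.02, *Map2k2* at 0.08, *Sos2* at 0.04, *Tgfbr2* at 0.05 and *Trp53* at 0.08. After re-centring *Insr* was at -0.02 and *Pik3cb* at -0.03, and with 10 reference genes at -0.02 and -0.03. After quantile normalization *Ccnd3* was at 0.00, *Col1a1* at -0.13, *Fn1* at 0.14, *Gadd45a* at 0.04, *Insr* at -0.06, *Map2k2* at 0.01, *Pik3cb* at -0.03 and *Tgfbr2* at 0.01. With all 20 reference genes *Cxcl5* was at 0.06, *Fn1* at 0.07, *Gadd45a* at 0.03, *Map2k2* at 0.10, *Rpl19* at 0.00, *Sos2* at 0.05, *Tgfbr2* at 0.07 and *Trp53* at 0.10. With 5 reference genes *Cxcl5* was at 0.02, *Fn1* at 0.03, *Map2k2* at 0.06, *Sos2* at 0.02, *Tgfbr2* at 0.03 and *Trp53* at 0.06. With 1 sample left out the sign also turned for *Cxcl5* (-0.27 to 0.17), *Fn1* (-0.11 to 0.06), *Insr* (-0.03 to 0.11), *Map2k2* (-0.03 to 0.03), *Nras* (0.00 to 0.12), *Pik3cb* (-0.03 to 0.07) and *Trp53* (-0.02 to 0.03).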
